A study of Mus musculus with 6 samples.

Results

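The COUP transcription factors and the retinoid receptors are nuclear receptors, and 9 of their genes were followed in newborn lenses of wild-type and Pax6 heterozygous mice. These were the COUP-TF genes Nr2f1 (COUP-TFI), Nr2f2 (COUP-TFII) and Nr2f6 (EAR2), the retinoic acid receptor (RAR) genes Rara, Rarb and Rarg, and the retinoid X receptor (RXR) genes Rxra, Rxrb and Rxrg. Every probe set annotated to 1 of these symbols and to no other gene was taken, which gave 14 of 22626 tested probe sets, or 9 of 12393 genes. Nr2f1 and Nr2f2 were chosen by their measured difference between the genotypes, since they stand in a list of differing genes that the study drew from these samples, so that difference is given as a description without a test. The other 7 genes joined by family and were tested.

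Affymetrix arrays measured lens RNA of 3 wild-type mice on the NMRI background and 3 heterozygous mice carrying a lacZ replacement of 1 Pax6 copy (Pax6 lacZ/+), with the 2 lenses of 1 mouse in each sample, at postnatal day 1. No mouse received a treatment, and the strain background of the heterozygous mice and the sex of the pups are not given in the sources used here. The Pax6 copy is lost in the whole animal, so the tissues that surround the lens also lack it. Signals are linear intensities from robust multichip average (RMA) processing, means are ± SD over 3 mice per genotype, and each log2 difference is the heterozygous minus the wild-type mean of log2 signals, ± standard error.

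The RARs are ligand-activated transcription factors that bind all-trans retinoic acid, and they act on DNA as pairs with an RXR. The RXRs also pair with many other nuclear receptors, among them those for thyroid hormone and vitamin D. The COUP-TFs bind direct repeats of the same core motif over a wide range of spacings, can pair with RXR, and often repress genes that RAR and RXR would activate; Nr2f1 and Nr2f2 act in the developing eye, and Nr2f2 is a known regulator of vein identity and a gene of many mesenchymal cells. Retinoic acid made by the lens, cornea and retina acts on eye development in large part through the mesenchyme around the optic cup.

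The core motif appears in the promoters of several of these genes. In RefSeq promoter windows (GRCm38.p6, 250 bases before to 50 bases after each start), 17 windows belonged to the 9 genes and 32851 to all genes. The hexamer AGGTCA was searched on both strands, together with the variant AGTTCA, the variant GGGTCA and the variant GGTTCA. At least 1 of these 4 stood in 9 of the 17 windows, from 7 of the 9 genes, against 43.7% of all windows, and AGGTCA alone stood in 4 windows (Rara, Rarg, Rxra and Rxrg) against 16.3%. A direct repeat of any of these hexamers with 5 bases between them stood only in the Rarb window among the 17, and in 0.0974% of all windows. No window of the 9 genes held such a repeat with 0, 1, 2, 3 or 4 bases between. The 250 bases before the start are printed for Rarb because of this repeat, and for Nr2f1 and Nr2f2 because their signals differ most between the genotypes. All lie on the minus strand and run 5′ to 3′ toward the start; capitals mark the hexamers of the direct repeat, and the lower-case bases between them are the spacer.
Rarb chr14:16575477-16575726: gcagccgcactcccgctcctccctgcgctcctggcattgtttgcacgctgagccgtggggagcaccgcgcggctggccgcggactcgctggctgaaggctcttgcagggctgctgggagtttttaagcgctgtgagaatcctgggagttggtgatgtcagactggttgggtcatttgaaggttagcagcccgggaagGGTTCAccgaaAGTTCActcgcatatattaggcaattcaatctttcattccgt
Nr2f1 chr13:78198874-78199123: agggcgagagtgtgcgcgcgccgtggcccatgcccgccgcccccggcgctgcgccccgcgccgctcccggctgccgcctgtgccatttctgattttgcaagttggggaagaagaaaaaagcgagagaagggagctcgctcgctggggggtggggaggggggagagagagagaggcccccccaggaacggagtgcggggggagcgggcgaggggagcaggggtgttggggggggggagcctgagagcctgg
Nr2f2 chr7:70366747-70366996: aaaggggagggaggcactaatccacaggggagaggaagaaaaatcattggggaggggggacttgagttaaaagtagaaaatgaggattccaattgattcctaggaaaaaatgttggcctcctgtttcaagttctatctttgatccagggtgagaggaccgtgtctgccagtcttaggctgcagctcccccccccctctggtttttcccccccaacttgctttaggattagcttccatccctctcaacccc

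The repeat of the Rarb promoter ends 37 bases before the start. The Nr2f1 stretch is 72% G or C, the Rarb stretch 58% and the Nr2f2 stretch 50%, beside a median of 52.4% (quartiles 45.2 and 61.2) over all windows. A match of letters is a description of the sequence only. Nr2f1 has a second annotated window with 1 AGTTCA, and the Nr2f2 and Rxrb windows held none of the 4 hexamers.

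Pax6 itself, the targeted gene, had 5 probe sets, the genotypes overlapped at each of them, and 3 were lower in heterozygous lenses in all 3 same-numbered pairs. At the brightest (1419271_at) the signals were 1169, 1760 and 963 in wild-type replicates 1 to 3 and 942, 1170 and 882 in the heterozygous ones, a difference of −0.34 ± 0.24 (limma adjusted p = 1.00) with pairs at −0.31, −0.59 and −0.13. When the limma fit took the replicate number as a block, its standard error was 0.12 and its adjusted p 0.509. The difference was −0.10 without wild-type replicate 2 and −0.53 without wild-type replicate 3. At 1452526_a_at the difference was −0.69 ± 0.41, with pairs at −0.57, −0.66 and −0.82 (limma adjusted p = 1.00, and 0.246 when the fit takes the replicate number as a block), and it moved to −0.33 without wild-type replicate 2 and to −1.05 without heterozygous replicate 2. At 1425960_s_at it was −0.48 ± 0.23, with pairs at −0.70, −0.03 and −0.72, and it moved to −0.32 without heterozygous replicate 1 and to −0.74 without heterozygous replicate 2. The remaining probe sets differed by −0.11 (1456342_at) and 0.19 (1437816_at), the latter higher in all 3 pairs. Which of these probes lie in the part of Pax6 that lacZ replaces is not given in the sources used here. Samples with the same replicate number deviated together in both genotypes, with r of 0.604 to 0.734 over probe sets. The 18 crystallin probe sets, markers of lens, had a median signal of 11868. A set of 33 olfactory receptor probe sets, genes not known for expression in lens, had medians of 8.16 to 13.4 and serves as a guide to background.

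**Figure D1:**
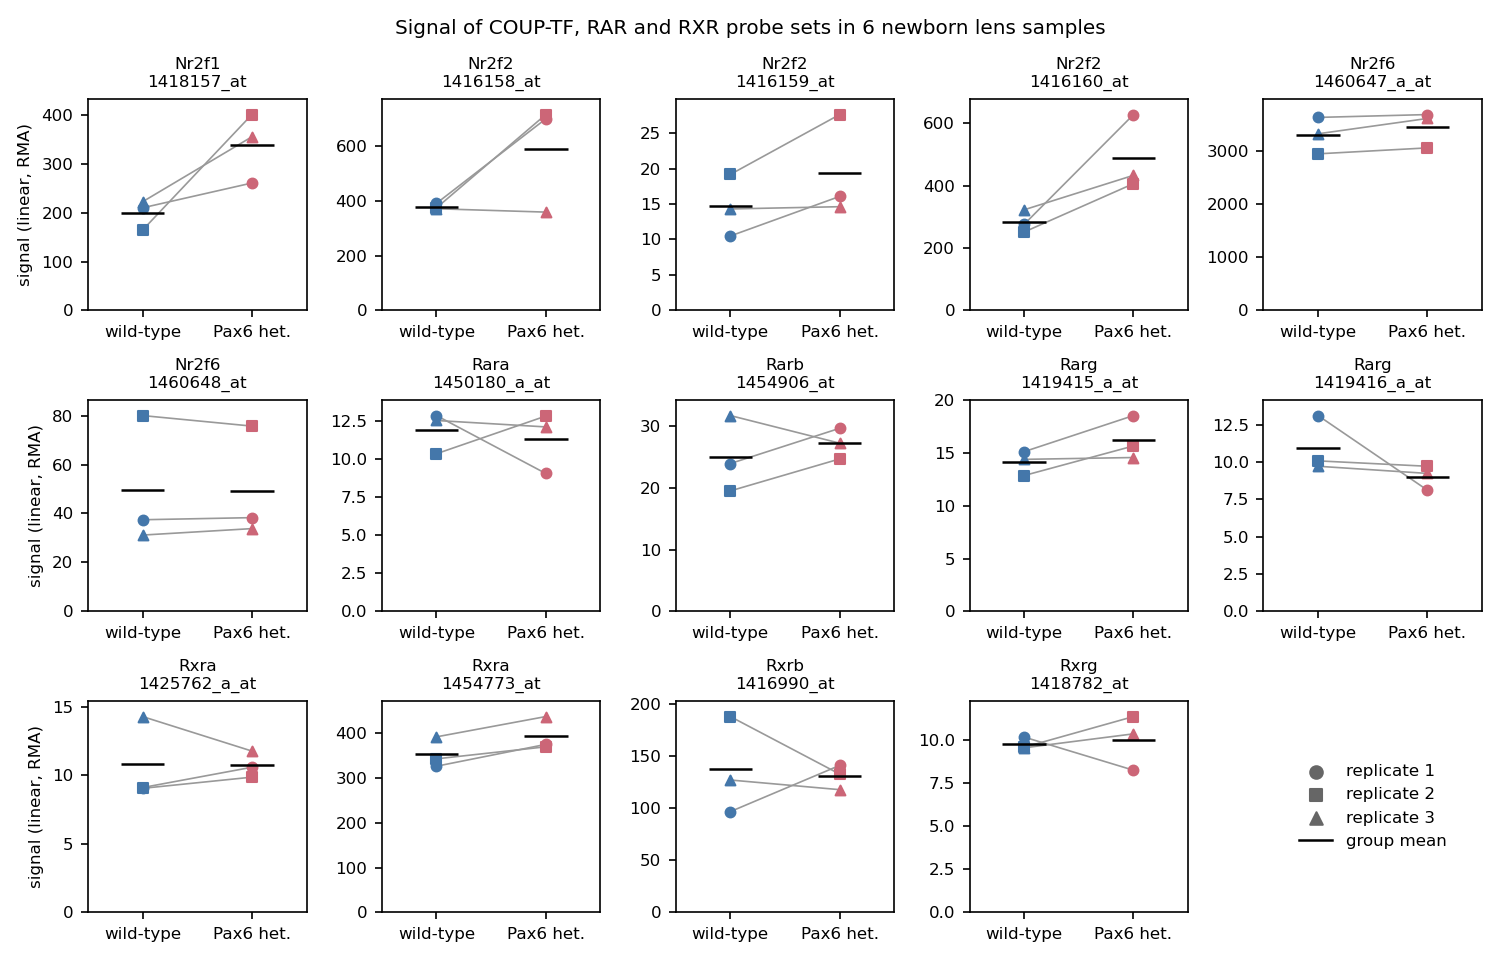
Linear RMA signal (vertical axis, from 0, with its own scale in each panel) of the 14 probe sets in wild-type (blue) and Pax6 heterozygous (red) lenses, 3 mice each. Symbols give the replicate number, gray lines join same-numbered samples and black bars are group means; the heterozygous samples lie above all wild-type samples at Nr2f1 and at Nr2f2 1416160_at, and at no other probe set do the genotypes separate.

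Nr2f1, which in mice takes part in the patterning of the optic vesicle and the neocortex, had 1 probe set (1418157_at). Its signals were 210.0, 164 and 222 in wild-type replicates 1 to 3 and 261, 401 and 355 in heterozygous replicates 1 to 3. All heterozygous samples lay above all wild-type samples, and the lowest of them was replicate 1. The means were 199 ± 30.5 and 339 ± 71.4 (SD, n = 3 mice each), so the heterozygous mean was 170.4% of the wild-type mean and the log2 difference was 0.76 ± 0.21. Taken by same-numbered pairs, the differences were 0.31, 1.28 and 0.68 for replicates 1, 2 and 3, so that pair 2 differed by far more than pair 1. Without both samples of replicate 2 the difference was 0.49, and without both of replicate 1 it was 0.98.

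Nr2f2 had 3 probe sets, and they did not give the same picture sample by sample. At 1416160_at, the probe set in the study's list, signals were 277, 252 and 323 in wild-type and 629, 407 and 434 in heterozygous replicates 1 to 3. The genotypes did not overlap here, and heterozygous replicate 1 stood well above the other heterozygous samples. The means were 284 ± 36.2 and 489.7 ± 121, a log2 difference of 0.77 ± 0.20, with pairs at 1.18, 0.69 and 0.42.

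At the brighter probe set of Nr2f2, 1416158_at, the wild-type samples were nearly equal at 391, 374 and 371, and the heterozygous samples read 699.6, 715 and 359. Heterozygous replicate 3 therefore lay below every wild-type sample, and the genotypes overlapped. The means were 379 ± 10.6 and 591 ± 201, and the log2 difference was 0.57 ± 0.28. Pairs 1 and 2 differed by 0.84 and 0.93 and pair 3 by −0.05. Without heterozygous replicate 3 the difference was 0.90, over 1.5 times the value with all samples. At the same replicate 3 pair, 1416160_at differed by 0.42, so the probe sets part most in that mouse.

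The dim Nr2f2 probe set, 1416159_at, read 10.5, 19.2 and 14.3 in wild-type and 16.1, 27.6 and 14.6 in heterozygous lenses. These signals reach into the range of the olfactory receptor probe sets, and the genotypes overlapped. Its difference was 0.39 ± 0.32, with pairs at 0.61, 0.53 and 0.03. It was 0.11 without heterozygous replicate 2 and 0.61 without wild-type replicate 2. Over the 6 arrays the log2 signals of 1416158_at followed those of 1416160_at with r = 0.68 and those of 1416159_at with r = 0.60, and the last pair gave r = 0.20. The genotype difference itself contributes to each of these correlations.

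Across all probe sets, 599 of 22626 (2.65%) had heterozygous samples wholly above wild-type samples, and 3125 (13.8%) were higher in all 3 pairs. Of the 4 probe sets of Nr2f1 and Nr2f2, 2 were wholly above and 3 were higher in all pairs. These counts follow from the way both genes were chosen. Their median difference was 0.67, beside −0.01 over all tested probe sets. In bulk tissue, more or fewer cells of a type and more or less RNA per cell cannot be told apart.

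**Figure D2:**
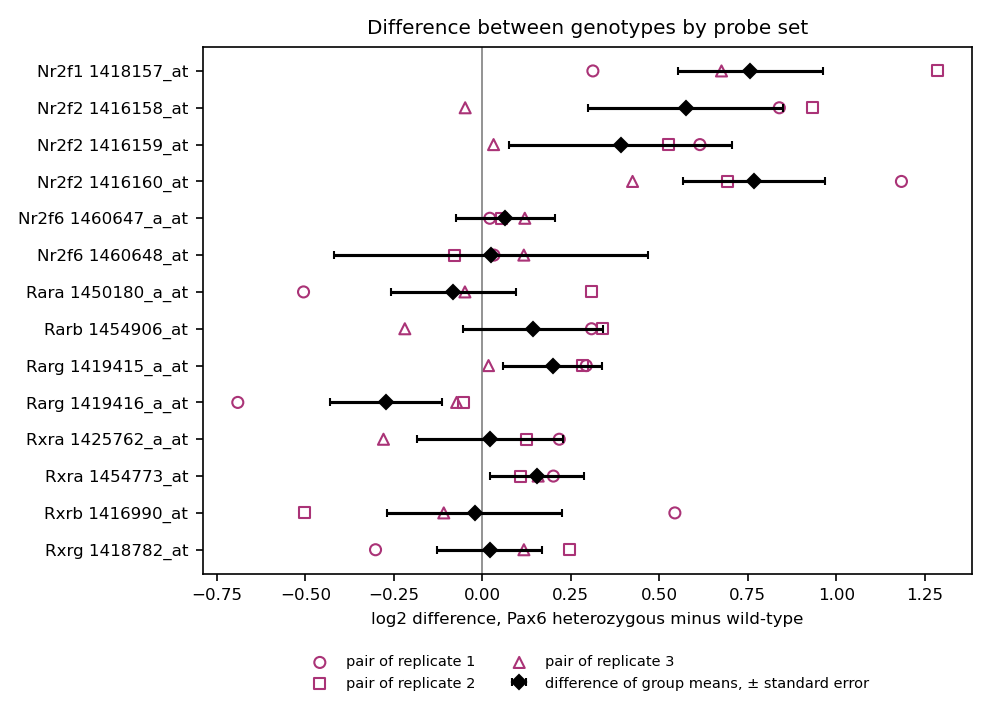
Log2 difference between Pax6 heterozygous and wild-type lenses (horizontal axis) for each of the 14 probe sets. Black diamonds and bars are the difference of group means ± standard error from limma over 3 mice per genotype, and open symbols are the differences within same-numbered pairs; the 4 probe sets of Nr2f1 and Nr2f2 lie between 0.39 and 0.77, and the 10 others between −0.27 and 0.20.

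Nr2f6, the COUP-TF relative that in mice acts in the development of the locus coeruleus and in T cells, differed little between genotypes. At its bright probe set (1460647_a_at) the signals were 3643, 2956 and 3334 in wild-type and 3697, 3068 and 3623 in heterozygous replicates 1 to 3. The samples overlapped and replicate 2 was the lowest in both genotypes. The difference was 0.06 ± 0.14 with a 95% interval of −0.27 to 0.40 (limma adjusted p = 1.00). The 0.77 of Nr2f2 1416160_at and the 0.76 of Nr2f1 belong to genes chosen by their difference in these samples, so this interval cannot be set against them. Whether these genes differ from Nr2f6 was not tested.

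A dim second probe set of Nr2f6 (1460648_at) went the other way from sample to sample. It read 37.4, 80.0 and 31.2 in wild-type and 38.3, 75.7 and 33.8 in heterozygous lenses, so that replicate 2 was the highest in both genotypes. The difference was 0.02 ± 0.44 (95% interval −1.04 to 1.09, adjusted p = 1.00). Within pairs the samples were close, and the standard error was 0.10 when the replicate number was a block. The log2 signals of the 2 Nr2f6 probe sets had r = −0.85 over the 6 arrays, so both carry a replicate pattern of opposite sign.

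The RAR genes were all dim. Rarb, itself a known retinoic acid target through a direct repeat with the spacing found in its promoter, read 24.0, 19.5 and 31.8 in wild-type and 29.7, 24.7 and 27.3 in heterozygous lenses (1454906_at). The genotypes overlapped, and the difference was 0.14 ± 0.20 with a 95% interval of −0.33 to 0.62 (limma adjusted p = 1.00). Pairs 1 and 2 stood at 0.31 and 0.34 and pair 3 at −0.22.

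Rara, the RAR with the broadest tissue expression, read 12.8, 10.3 and 12.5 in wild-type and 9.04, 12.8 and 12.1 in heterozygous lenses (1450180_a_at), within the range of the olfactory receptor probe sets. Its difference was −0.08 ± 0.18 (95% interval −0.50 to 0.34, adjusted p = 1.00 with limma).

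Rarg, a receptor best known from skin and skeleton, had 2 probe sets that pointed opposite ways. At 1419415_a_at the signals were 15.1, 12.9 and 14.4 in wild-type and 18.5, 15.7 and 14.6 in heterozygous lenses, a difference of 0.20 ± 0.14 (95% interval −0.14 to 0.53) that was positive in all 3 pairs. At 1419416_a_at they were 13.1, 10.1 and 9.72 against 8.12, 9.72 and 9.24, a difference of −0.27 ± 0.16 (95% interval −0.65 to 0.11) that was negative in all 3 pairs, as were 17.2% of all probe sets. Both had a limma adjusted p of 1.00, both overlapped between genotypes, and their log2 signals had r = −0.43 over the 6 arrays. No direction can be given for Rarg from such probe sets.

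Among the RXR genes, Rxra and Rxrb were above the background guide. Rxra, the main RXR of the mouse embryo, read 326, 342 and 391 in wild-type and 374, 369 and 436 in heterozygous lenses (1454773_at). The heterozygous value was higher in all 3 pairs, by 0.20, 0.11 and 0.16, but the genotypes overlapped. The means were 353 ± 34.0 and 393 ± 37.4, a difference of 0.16 ± 0.13 with a 95% interval of −0.16 to 0.47 (limma adjusted p = 1.00). The second Rxra probe set (1425762_a_at) was at background, with 9.12, 9.06 and 14.3 against 10.6, 9.88 and 11.8, and a difference of 0.02 ± 0.21 (95% interval −0.48 to 0.52, adjusted p = 1.00).

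Rxrb, which is expressed in most tissues, read 96.6, 188 and 127 in wild-type and 141, 133 and 118 in heterozygous lenses (1416990_at). The wild-type samples enclosed all heterozygous ones, and the difference was −0.02 ± 0.25 (95% interval −0.62 to 0.57, adjusted p = 1.00 with limma). Its sign rested on single samples, with 0.23 when wild-type replicate 2 was left out and −0.31 when both samples of replicate 1 were.

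Rxrg, the RXR of muscle, brain and cone photoreceptors, was at background in both genotypes (1418782_at). The values were 10.2, 9.58 and 9.55 in wild-type and 8.25, 11.4 and 10.4 in heterozygous lenses, with a difference of 0.02 ± 0.15 (95% interval −0.34 to 0.38, adjusted p = 1.00).

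The 10 probe sets of the 7 tested genes had a median difference of 0.02, with 7 above 0 and 3 below, where 46.5% of all tested probe sets were above 0. None of them had genotypes that did not overlap, against 6.18% of all probe sets (2.65% higher and 3.53% lower). None passed an unadjusted p of 0.05, against 1.99% (0.977% higher and 1.01% lower). At an adjusted p of 0.05 limma called 0 of 22626 probe sets (0%), and with a block for the replicate number it called 2 (0.00884%), neither of them among the 9 genes. The lowest adjusted p of the 7 genes with the block was 0.656. Without the block it was 0.99994, the value also of Pax6 1419271_at, so a printed adjusted p of 1.00 does not rank genes. The p-values and printed intervals without the block rest on the spread between mice of 1 genotype, 3 per genotype, which limma draws toward that of all probe sets. That spread includes whatever same-numbered samples share. With the block the standard error of Rxra 1454773_at, for example, was 0.096 in place of 0.13.

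Genes that make, carry or remove retinoic acid were measured beside the receptors. Of 17 genes on this list 14 had a probe set of their own, with 8 above 0 and 6 below at the brightest probe set, a median difference of 0.05, and 0 passing the adjusted test. Of the 14, Aldh1a2, Lrat, Rbp2 and Rbp4 were in the range of the olfactory receptor probe sets. Over all 12393 genes 47.0% were above 0, the median was −0.01 and 0 passed. The brightest members were Fabp5, a fatty acid binding protein that can carry retinoic acid to the nucleus (9194 ± 489 in wild-type, 8683 ± 941 in heterozygous lenses), and Aldh1a1, a retinaldehyde dehydrogenase that makes retinoic acid (4798 ± 449 and 4859 ± 354). Their differences were −0.09 and 0.02.

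Rdh10, which oxidizes retinol in the first step of retinoic acid synthesis, had means of 655 ± 90.2 in wild-type lenses and 787 ± 91.1 in heterozygous ones, a difference of 0.27 ± 0.16 (limma adjusted p = 1.00). Aldh1a3, a retinaldehyde dehydrogenase of the developing eye, and Cyp26a1, a cytochrome P450 that breaks retinoic acid down, are like Nr2f1 and Nr2f2 on the study's list and are described without a test. The counts given for the gene lists still include them. Aldh1a3 read 34.3, 23.1 and 36.2 in wild-type and 58.8, 46.0 and 42.3 in heterozygous lenses. The heterozygous samples lay wholly above, by 0.67 ± 0.22. Cyp26a1 was close to background, at 17.1, 15.2 and 17.1 against 10.7, 13.7 and 12.2, with the heterozygous samples wholly below, by −0.44 ± 0.14.

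**Figure D3:**
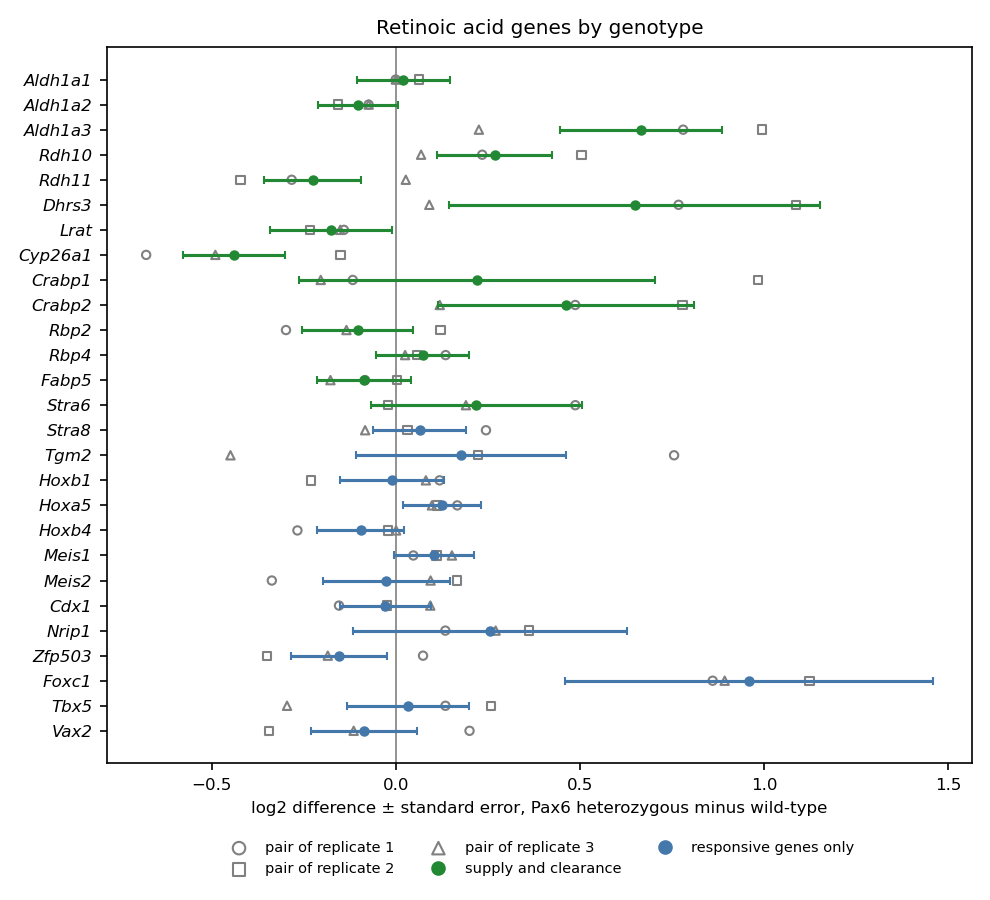
Log2 difference between Pax6 heterozygous and wild-type lenses (horizontal axis) for the measured genes of retinoic acid supply and clearance (green) and for the responsive genes that are on that list alone (blue), at the brightest probe set of each gene. Filled points and bars are differences of group means ± standard error over 3 mice per genotype and open symbols are same-numbered pairs. Aldh1a3 (0.67), Dhrs3 (0.65) and Foxc1 (0.96) lie to the right and Cyp26a1 (−0.44) to the left. No gene passed the adjusted test, and Aldh1a3, Cyp26a1, Rdh11 and Zfp503 are on the study's list from these samples.

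Genes known to respond to retinoic acid in other tissues gave 10 above 0 and 7 below among 17 measured of 22, with a median of 0.06 and 0 past the adjusted test. The brightest were Nrip1, a corepressor induced by retinoic acid (503 ± 188 and 596 ± 216), Meis2, a homeobox gene (489.9 ± 17.7 and 488 ± 98.6), and Crabp2, a carrier of retinoic acid to its receptors (184 ± 62.0 and 257 ± 98.2). Their differences were 0.25 ± 0.37, −0.03 and 0.46 ± 0.35. Dhrs3, a retinaldehyde reductase on both retinoic acid lists that was added after its values were seen, differed by 0.65 ± 0.50, with pairs at 0.77, 1.09 and 0.09 and overlapping genotypes (limma adjusted p = 1.00).

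Foxc1, a forkhead gene of the mesenchyme around the lens, is also on the mesenchyme marker list. It read 229, 88.8 and 87.0 in wild-type and 416, 193 and 161 in heterozygous lenses. Replicate 1 was the highest in both genotypes and the groups overlapped, at a difference of 0.96 ± 0.50 (limma adjusted p = 1.00). The retinoic acid responsive list had a median near that of all genes. Its members with the larger values did not pass the test. Of its 17 measured genes, 6 were in the range of the olfactory receptor probe sets. A median signal of at least 100 was reached by 5. Of those 5, Foxc1, Dhrs3, Crabp2 and Nrip1 were higher in all 3 pairs, as were 13.8% of all probe sets. Meis2 was higher in 2 pairs. That share covers probe sets of any signal, 60.8% of them under a median of 50. The list was chosen with earlier results known, and Dhrs3 was added after its values were seen, so the count is a description only.

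Cofactors of nuclear receptors gave 6 above 0 and 11 below among 17 measured of 20, with a median of −0.02 and 0 past the adjusted test. Kat2b, an acetyltransferase, read 1509 ± 277 and 1356 ± 218 (−0.15 ± 0.19). Tbl1xr1, a subunit of the NCoR corepressor complex, read 1039 ± 279 and 1023 ± 241 (−0.01). Med1, the Mediator subunit that receptors contact, read 942 ± 66.0 and 878 ± 48.4 (−0.10 ± 0.12).

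Bcl11a (CTIP1), which was found as a partner protein of the COUP-TFs, read 21.5, 15.4 and 15.3 in wild-type and 44.5, 26.1 and 26.4 in heterozygous lenses. The heterozygous samples lay wholly above, by 0.87 ± 0.26, and replicate 1 was the highest in both genotypes. The limma adjusted p was 1.00, and 0.233 when the fit took the replicate number as a block. Ncoa3, a coactivator, was in the range of the olfactory receptor probe sets and differed by 0.19 ± 0.13 (limma adjusted p = 1.00).

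Other receptors that pair with RXR were mostly not above background, with 9 of 12 measured genes in the range of the olfactory receptor probe sets. Of these 12 genes (13 on the list) 6 were above 0 and 6 below, and 0 passed the adjusted test. Thra, a thyroid hormone receptor, was the brightest at 211 ± 52.9 and 190.7 ± 10.1, a difference of −0.11 ± 0.21. Nr4a1, an early response receptor, differed by 0.53 ± 0.31 (limma adjusted p = 1.00). It was among those in the range of the olfactory receptor probe sets. Its heterozygous replicate 1 read 26.5, against 12.9 and 12.2 in heterozygous replicates 2 and 3. The 4 measured genes of the wider NR2 subfamily differed by −0.11 (Nr2c1), −0.11 (Nr2c2), −0.01 (Hnf4a) and 0.12 (Hnf4g), with 0 past the adjusted test. Of these, Hnf4a and Hnf4g were in the range of the olfactory receptor probe sets.

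Of the marker lists for tissues and cells next to the lens, those of endothelium, mesenchyme, retina and macrophages had medians above 0 by 0.24 or more, and those of pigment cells, ciliary body and iris, and cornea did not. The median difference was 0.37 for endothelium (14 of 16 genes above 0), 0.24 for mesenchyme (8 of 14), 0.32 for retina (11 of 12) and 0.32 for macrophages (12 of 13). It was −0.28 for lens epithelium (1 of 8, Pax6 being on the list), −0.07 for lens fibers (2 of 10), −0.07 for pigment cells (3 of 8) and −0.05 for ciliary body and iris (2 of 5). Cornea markers had a median of 0.02 (4 of 7) and were all in the range of the olfactory receptor probe sets. No gene of these lists passed the adjusted test, and Cryab, Eln, Isl1, Npnt and Pdgfra among them, like Rdh11 and Zfp503 of the retinoic acid lists, also stand in the study's list from these samples. The list counts include these genes.

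Summed marker levels ranged from 985 to 2276 in wild-type and from 1244 to 4091 in heterozygous samples for endothelium, from 539 to 1093 and from 506 to 1608 for mesenchyme, from 549 to 710.3 and from 668 to 1163 for retina, and from 502 to 1564 and from 319.8 to 1755 for macrophages. Such sums are led by the brightest genes, and for all 4 lists the genotypes overlapped. Within pairs the endothelium sum was higher in the heterozygous sample in all 3, at 2276 and 4091, 1149 and 1376, and 985 and 1244, and so was the retina sum, at 710.3 and 1064, 549 and 1163, and 589 and 668. The mesenchyme and macrophage sums were higher in pairs 1 and 2 and lower in pair 3. Some defining markers were in the range of the olfactory receptor probe sets, namely Pecam1 and Sox18 of endothelium, Dcn, Lum and Foxc2 of mesenchyme, Nrl, Rcvrn, Vsx1 and Ptf1a of retina, and Adgre1 and Cx3cr1 of macrophages. The part of these tissues in the Nr2f1 and Nr2f2 differences was not tested.

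Sample by sample, the COUP-TF genes shared some highs and lows with the marker lists and not others. The endothelium list was highest in heterozygous replicate 1 (0.91 above the mean of 6 samples, as a median over genes) and next in wild-type replicate 1 (0.34), and the mesenchyme list stood at 0.58 and 0.51 in the same samples. Other lists were high there too, at 0.39 and 0.52 for pigment cells and 0.32 and 0.33 for the reference genes B2m, Hprt, Sdha and Actb. The lens epithelium list stood at −0.24 and 0.01 and the lens fiber list at −0.25 and −0.12. Nr2f1 was highest in heterozygous replicates 2 and 3 (0.64 and 0.47) and stood at 0.02 and −0.29 in the replicate 1 samples. The retina list had its highest value in heterozygous replicate 2 (0.46) and its lowest in wild-type replicate 2 (−0.24), the same samples in which Nr2f1 was highest (0.64) and lowest (−0.64). In heterozygous replicate 3 the endothelium, mesenchyme, retina and macrophage lists were at −0.38, −0.41, −0.09 and −0.82, where Nr2f1 was at 0.47 and Nr2f2 1416160_at at 0.24.

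Nr2f2 1416160_at had its highest value in heterozygous replicate 1 (0.77), as did the endothelium list, but stood at −0.41 in wild-type replicate 1. Nr2f2 1416158_at was high in heterozygous replicates 1 and 2 (0.60 and 0.63) and low in heterozygous replicate 3 (−0.36), where the macrophage list stood at 0.74, 0.64 and −0.82. In wild-type replicate 1, in contrast, the macrophage list was at 0.42 and this probe set at −0.24. The within-pair medians were 0.75, 0.13 and 0.12 for endothelium, 0.57, 0.35 and 0.07 for mesenchyme, 0.11, 0.64 and 0.08 for retina, and 0.39, 1.27 and −0.18 for macrophages, beside 0.31, 1.28 and 0.68 for Nr2f1, 1.18, 0.69 and 0.42 for Nr2f2 1416160_at, and 0.84, 0.93 and −0.05 for Nr2f2 1416158_at. Pair 1 was the largest and pair 3 the smallest for Nr2f2 1416160_at, Nr2f2 1416159_at (0.61, 0.53 and 0.03), endothelium and mesenchyme. Pair 2 was the largest and pair 3 negative for both Nr2f2 1416158_at and the macrophage list. Pair 2 was also the largest for Nr2f1 and the retina list. The smallest was pair 1 for Nr2f1 and pair 3 for the retina list. These are orders of only 3 pairs set beside several lists, and whether they go together was not tested.

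**Figure D4:**
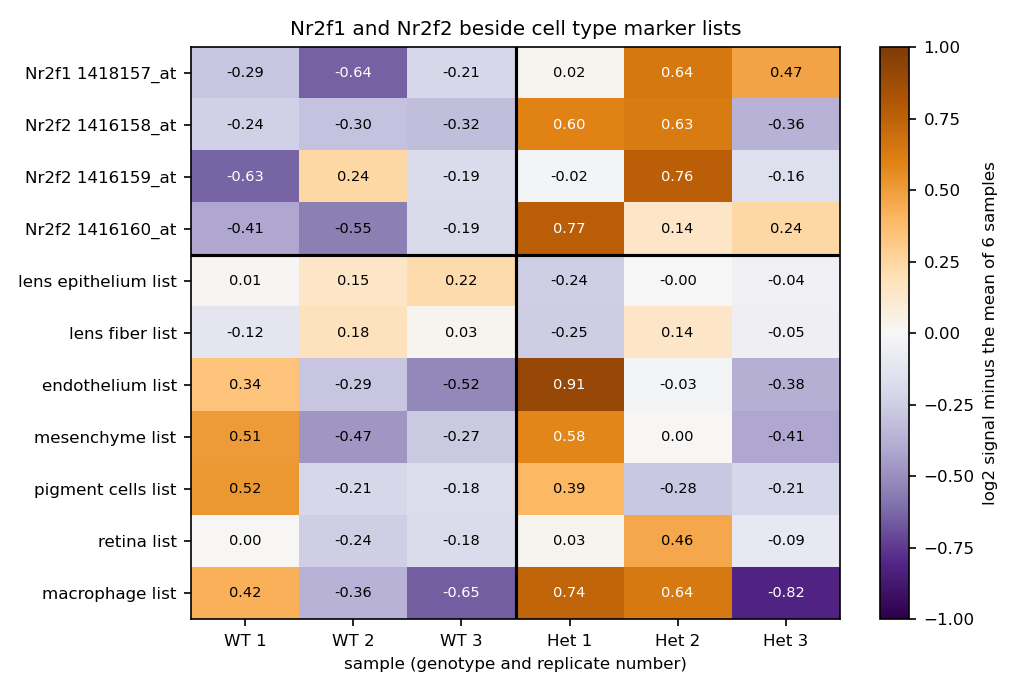
Log2 signal minus the mean of the 6 samples (color, orange above and purple below) for the probe sets of Nr2f1 and Nr2f2 and, as the median over genes, for 7 marker lists, with the samples in columns by genotype and replicate number. Nr2f1 and the retina list peak in heterozygous replicate 2 (0.64 and 0.46) and the endothelium list in heterozygous replicate 1 (0.91); in heterozygous replicate 3 the macrophage list is at −0.82 and Nr2f1 at 0.47.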

How the data were processed

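Newborn lens RNA (50 ng, NuGEN amplification) from 3 wild-type and 3 Pax6 heterozygous mice was hybridized by the authors, and the deposited values are signal intensities on the linear scale made by RMA (version not given in the sources used here). RMA combines the probes of a probe set and leaves dim values near background, where ratios are pulled toward 1. The table holds 22690 probe sets, fewer than the array design named in the methods has; 64 controls were left out. The number of arrays, not depth, limits precision. No column of other samples was present.

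Probe sets were named from the platform annotation (20380 with 1 gene, 691 with several, 1555 with none), and all 9 genes matched RefSeq (GRCm38.p6). Log2 signals were compared with limma 3.58.1 (lmFit, eBayes) in R 4.3.3, Benjamini-Hochberg adjusted over all 22626 probe sets at 0.05. The steps were run on simulated data with independent noise in each array and changes larger than most differences described here. The simulation held no effect shared by same-numbered samples, so it does not bear on the pairing or on small differences. Figures used Python 3.11.15 and matplotlib 3.10.9. The genes and lists were chosen with earlier results of these data known. Each list was counted at the brightest probe set of a gene, naming its 3 brightest members and the 2 with the smallest p; a few of these are left out of the text. Replicate numbers pair the samples, since deviations of same-numbered samples had r of 0.645, 0.734 and 0.604 and others −0.0751 to −0.496; what the numbers share is not given in the sources used here. Settings tried beside this were a t-test as in the methods, on log2 or linear signals, quantile normalization, median centring, filters at a median of 50 or 100, an intensity trend with robust prior, array weights, log2(signal + 16), the replicate block, leaving out samples, and, for lists, the mean over a gene's probe sets.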

Additional observations from a re-analysis of the deposited data

How the results depend on the processing

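Of 283 values recomputed under other settings for the 9 genes and Pax6, 263 were scored as unchanged and 20 changed sign. For the tested genes and Pax6, unchanged meant the same direction and side of the threshold. For Nr2f1 and Nr2f2 it meant a shift smaller than the SD within genotypes, or on linear signals the same sign. Of 57 more with both samples of a replicate number left out, chosen after seeing the data, 49 were scored as unchanged and 8 changed sign. No change of sign concerned Nr2f1, Nr2f2 or Pax6. With the replicate block, which uses the pairing of the samples, 2 probe sets passed in place of 0 (2042 against 450 at an unadjusted p under 0.05), and the block changed no call among the 9 genes. Leaving out single samples or both samples of a number gave 0 calls each time (312 to 598 unadjusted). On linear signals the difference in signal was −0.0736 for Rxra 1425762_a_at and −0.268 for Nr2f6 1460648_at. Median centring gave −0.0051 for Rxrg, −0.0047 for Rxra 1425762_a_at and −0.0021 for Nr2f6 1460648_at, and array weights gave 0.060 for Rxrb and −0.0082 for Rxrg. Leaving out samples gave −0.31 to 0.23 for Rxrb, −0.092 to 0.18 for Rxrg, −0.090 to 0.24 for Rxra 1425762_a_at, −0.28 to 0.13 for Rara, −0.023 to 0.33 for Rarb, and −0.014 to 0.15 and −0.33 to 0.43 for Nr2f6 1460647_a_at and 1460648_at. The cause was not tested. Over the same sets the range was 0.49 to 0.98 for Nr2f1, and for Nr2f2 0.40 to 0.90 (1416158_at), 0.11 to 0.61 (1416159_at) and 0.56 to 0.94 (1416160_at). The other alternatives on the log2 scale gave 0.69 to 0.78 for Nr2f1, and for Nr2f2 0.74 to 0.79 (1416160_at), 0.51 to 0.61 (1416158_at) and 0.20 to 0.39 (1416159_at), the lowest under log2(signal + 16). Filters on dim probe sets give no value for the members under them.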

Other observations

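Over 4487 genes with a median signal of at least 100, the genes whose log2 deviations from the genotype means were most like those of Nr2f1 over the 6 arrays were Frat1 (r = 0.991), Thoc3 (0.956), Casp2 (0.945), Srsf5 (0.941) and Adprm (0.929). For Nr2f2 1416158_at they were Vbp1 (0.993), Kdm1a (0.989), Nup93 (0.984), Acaa2 (0.984) and Ugcg (0.982). These values are a description over 6 arrays and many genes. When the genotype means were kept in, 1 of the 5 genes for Nr2f1 (Adprm) and 0 of the 5 for Nr2f2 stayed among the nearest. The gene nearest to Nr2f2 1416158_at was then Otx2 (r = 0.981), an eye and forebrain homeobox gene on the retina marker list. Its signals were 194, 156 and 156 in wild-type and 442, 411 and 185 in heterozygous lenses. Nr2f2 1416158_at and Otx2 were both low in heterozygous replicate 3 relative to the other heterozygous samples. The next nearest were Kdelr2 (0.972), Cks1b (0.968), Tinagl1 (0.960) and Tbx3 (0.940), which are on no marker list here. A shared genotype difference adds to such an r.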
